A study of Homo sapiens with 6 samples.

Results

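The mevalonate arm of cholesterol synthesis, from acetyl-CoA to squalene, was examined through its enzyme genes ACAT2, HMGCS1, MVK, PMVK, MVD, IDI1, FDPS, GGPS1 and FDFT1. A gene was measured where the array annotation gave a probe set with that gene as its only symbol, and with several such probe sets the one of the highest mean over the 6 arrays was used. This gave 8 of the 9 listed genes, of 18417 genes in all, each with 1 such probe set. FDFT1, which encodes squalene synthase, was not analysed here. The probe sets were 8123137 (ACAT2), 8111941 (HMGCS1), 7958565 (MVK), 7920567 (PMVK), 8003332 (MVD), 7931754 (IDI1), 7905986 (FDPS) and 7910640 (GGPS1).

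The study used 1 Affymetrix array for each of 6 groups, so differences inside a cell line have no replicate check, and this number of arrays limits all precision. HCT116-p53KO, a p53 knockout of the human colon cancer line HCT116, and HCT116 itself received NRF3 siRNA or control siRNA and were harvested 48 h later. H1299, from a human lung carcinoma, carried an NRF3 or a GFP expression plasmid after G-418 selection. The sources used here do not give the number of siRNAs, the promoter of the plasmids, or whether knockout and stable cells were clones or pools. NRF3, encoded by NFE2L3, is a transcription factor of the CNC basic leucine zipper family.

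In this pathway ACAT2 joins acetyl-CoA units, HMGCS1 adds another to make HMG-CoA, and HMG-CoA is reduced to mevalonate. MVK and PMVK phosphorylate mevalonate and MVD decarboxylates the product to isopentenyl diphosphate, which IDI1 converts to its isomer. FDPS condenses these units to farnesyl diphosphate, the branch point between squalene and the isoprenoids, and GGPS1 extends it to geranylgeranyl diphosphate, used for protein prenylation. Genes of the pathway are classic targets of SREBP2, a transcription factor released when sterols are low, which acts together with the CCAAT-binding factor NF-Y and with Sp1.

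The RefSeq promoter windows of HMGCS1, IDI1 and MVK are shown because these genes, with ACAT2, had the largest mean absolute differences of the arm, and because CCAAT boxes recurred in the windows of the members. Each window is of GRCh38.p14, runs from 250 bases before a transcript start to 50 after it, and is written 5′ to 3′ on the strand of the gene. Capitals mark CCAAT boxes, CCAAT or its complement ATTGG. The HMGCS1 window is chr5:43313363-43313662 (minus strand), the IDI1 window is chr10:1048837-1049136 (minus strand) and the MVK window is chr12:109573544-109573843 (plus strand). The table held 2 windows for HMGCS1 and 3 for IDI1, and those with the most CCAAT boxes are printed.
HMGCS1: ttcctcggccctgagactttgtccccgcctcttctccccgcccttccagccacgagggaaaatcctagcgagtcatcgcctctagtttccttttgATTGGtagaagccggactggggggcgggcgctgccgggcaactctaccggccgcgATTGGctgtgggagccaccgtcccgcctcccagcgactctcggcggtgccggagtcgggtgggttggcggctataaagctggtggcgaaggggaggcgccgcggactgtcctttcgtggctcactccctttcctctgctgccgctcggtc
IDI1: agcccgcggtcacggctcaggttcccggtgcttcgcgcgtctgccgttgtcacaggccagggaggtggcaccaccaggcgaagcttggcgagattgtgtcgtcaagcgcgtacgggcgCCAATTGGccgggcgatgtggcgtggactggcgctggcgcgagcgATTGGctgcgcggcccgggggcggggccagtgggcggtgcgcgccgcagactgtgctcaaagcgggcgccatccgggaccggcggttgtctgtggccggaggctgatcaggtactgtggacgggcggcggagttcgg
MVK: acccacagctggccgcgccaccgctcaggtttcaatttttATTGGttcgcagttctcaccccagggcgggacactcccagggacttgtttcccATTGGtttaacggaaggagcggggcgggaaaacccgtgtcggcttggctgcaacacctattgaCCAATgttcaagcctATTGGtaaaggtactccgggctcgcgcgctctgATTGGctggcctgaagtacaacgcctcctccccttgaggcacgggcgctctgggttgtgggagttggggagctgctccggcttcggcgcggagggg

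The printed windows held 2 CCAAT boxes in HMGCS1, 3 in IDI1 and 5 in MVK, and in IDI1 a CCAAT and an ATTGG shared 2 bases. The HMGCS1 window not printed held 0, and those of IDI1 held 0 and 2. Windows were found for 7 measured members, 12 windows in all, and 6 of the 7 members had a CCAAT box in at least 1 window, against 39.7% of 27305 genes in the table. PMVK was the one without, and GGPS1 had 1 box, in 1 of its 3 windows. The Sp1 motif GGGCGG, read on both strands as all motifs were, was in a window of 7 of 7 members, against 48.3% of genes. The sterol regulatory element was searched only as the exact letters TCACNCCAC, so forms with other letters were not counted. Those exact letters were in none of the 7, against 1.39% of genes, and the E-box CACGTG was in none, against 8.77%. The antioxidant element core TGACNNNGC, the type of site that CNC factors bind, was in HMGCS1 alone, in the window not printed, against 16.1% of genes. TATAAA was in HMGCS1 alone, in the printed window, against 14.0%. The shares are over all genes in the table, whether or not they were expressed on these arrays, while all measured members were. Members with several windows had more chances of a match. The matches describe letters in a window of 300 bases and show neither binding nor its absence.

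The targeted gene followed the labels on all 6 arrays. NFE2L3 had a log2 intensity of 6.62 with NRF3 siRNA and 8.97 with control siRNA in HCT116, 7.15 and 8.71 in HCT116-p53KO, and 10.20 with the NRF3 plasmid and 8.18 with GFP in H1299. Of 8 colon epithelial markers, 6 were at 6 or more on each HCT116-family array, EPCAM and CDH1 among them, while VIL1 and CDH17 were under 6 on every array. On the H1299 arrays 3 of the 8 were at 6 or more, and vimentin (VIM), a mesenchymal-type marker, was at 12.08 with NRF3 and 12.45 with GFP. Each array had 4 of 5 mesenchymal-type markers at 6 or more, with CDH2 under 6 in the HCT116 family and SPARC under 6 in H1299, and VIM was near 7 in the HCT116 family. The summed epithelial marker level was 75.47 with NRF3 siRNA and 77.53 with control siRNA in HCT116, 73.52 and 75.64 in HCT116-p53KO, and 51.21 and 51.22 in H1299. Its part in the results was not tested. The arrays of H1299 had a lower median than those of the HCT116 family (6.05 with NRF3 and 6.08 with GFP, against at least 6.95). So no level of a member in H1299 is set against one in the HCT116 family. The marker counts at 6 and the marker levels above carry this offset between the lines. RNA was from bulk culture, so fewer cells with a transcript and less of it per cell cannot be told apart.

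After NRF3 siRNA in HCT116, the transcripts of ACAT2, HMGCS1 and IDI1 were lowest relative to control siRNA, MVK was lower by a smaller amount, and PMVK, MVD, FDPS and GGPS1 lay between -0.14 and 0.19. Of the 8 genes 6 were lower and 2 higher, with a median difference of -0.29 (log2), against 0.01 over the 14034 genes that reached 6 (log2 intensity) on either array or both. At 1.5-fold or more, 3 were lower and 0 higher, where 6.02% of those genes were lower and 2.71% were higher.

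In HCT116-p53KO the same enzymes were the lowest, and FDPS stood out on the higher side. Here 5 genes were lower and 3 higher, with a median of -0.19, against 0.00 over 13680 genes. HMGCS1 and IDI1, 2 of the 8, were at least 1.5-fold lower and 0 were higher, where 2.38% of those genes were lower and 3.63% were higher.

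With the NRF3 plasmid in H1299 the direction was the opposite for most of the arm. Of the 8 genes 6 were higher and 2 lower, with a median of 0.22, against 0.00 over 11304 genes. With the expression minimum raised to 7, which left out PMVK and GGPS1, the members' median was 0.45. HMGCS1, ACAT2 and IDI1, 3 of the 8, were at least 1.5-fold higher and 0 lower, where 4.82% of those genes were higher and 4.2% were lower. IDI1 dropped below that size when quantile normalization was repeated over all arrays (0.53) or the difference was loess-corrected (0.57).

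**Figure D1:**
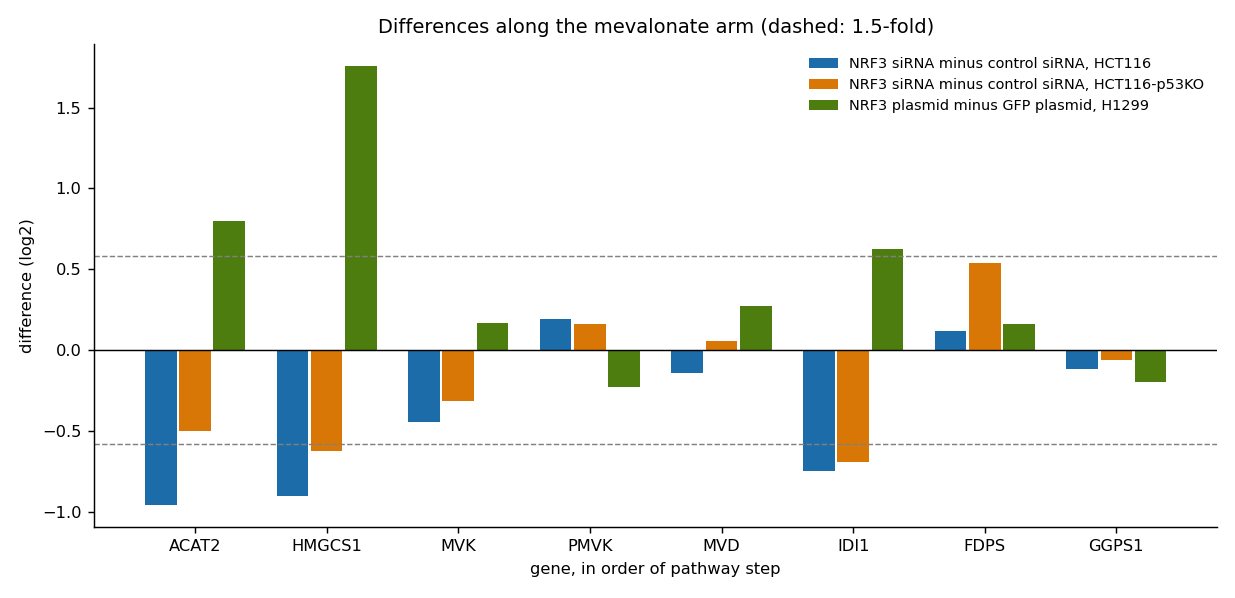
Difference in log2 intensity (vertical axis) for the 8 measured genes in order of pathway step, with 1 bar per NRF3 comparison and no error bars because each group had 1 array. ACAT2, HMGCS1 and IDI1 have long bars, below 0 after siRNA in both lines and above 0 in H1299, up to 1.76 for HMGCS1, while PMVK runs the other way and GGPS1 stays near 0.

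The first reactions were taken in turn. ACAT2, the cytosolic acetoacetyl-CoA thiolase, had a log2 intensity of 7.82 with NRF3 siRNA and 8.77 with control siRNA in HCT116, and 8.52 and 9.01 in HCT116-p53KO. In H1299 it was at 9.63 with NRF3 and 8.84 with GFP. The NRF3 siRNA array was the lower of each pair and the NRF3 plasmid array the higher. ACAT2 was 1.94-fold lower in HCT116, at rank 174 from the lowest of 14034 genes, 1.41-fold lower in HCT116-p53KO, and 1.74-fold higher in H1299. ACAT1, its mitochondrial paralog, did not share this pattern: its differences were 1.20, 1.01 and 0.42, higher in all 3 comparisons.

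HMGCS1, the cytosolic HMG-CoA synthase, had 7.88 with NRF3 siRNA and 8.79 with control siRNA in HCT116, and 8.53 and 9.15 in HCT116-p53KO. In H1299 it had 9.44 with NRF3 and 7.68 with GFP. These are 1.87-fold and 1.54-fold lower after siRNA, and 3.38-fold higher with the NRF3 plasmid. The H1299 difference of 1.76 was at rank 14 from the highest of 11304 genes and was the largest of any member in any comparison.

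MVK, mevalonate kinase, showed the same signs at smaller size. Its levels were 7.75 with NRF3 siRNA and 8.19 with control siRNA in HCT116, 7.875 and 8.19 in HCT116-p53KO, and 7.20 with NRF3 and 7.04 with GFP in H1299. The differences of -0.45, -0.31 and 0.17 were short of 1.5-fold. They stood at rank 1479 from the lowest of 14034 genes in HCT116, rank 1326 from the lowest of 13680 in HCT116-p53KO and rank 3210 from the highest of 11304 in H1299. MMAB, a cobalamin adenosyltransferase encoded on the other strand, has a promoter window that shares 211 bases with that of MVK (chr12:109573544-109573754). All CCAAT boxes marked in the MVK window lie in this shared stretch. MMAB differed by -0.12, 0.18 and -0.03.

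PMVK, phosphomevalonate kinase, differed with the opposite sign to the kinase before it. It had 7.25 with NRF3 siRNA and 7.06 with control siRNA in HCT116, 7.16 and 6.996 in HCT116-p53KO, and 6.71 with NRF3 and 6.94 with GFP in H1299. The differences of 0.19, 0.16 and -0.23 kept their signs when normalization was repeated or loess-corrected, but 26.1%, 28.0% and 21.0% of expressed genes lay further out on that side. MVD, the decarboxylase, had 8.76 with NRF3 siRNA and 8.90 with control siRNA in HCT116, 8.88 and 8.82 in HCT116-p53KO, and 8.47 with NRF3 and 8.20 with GFP in H1299. Its siRNA differences, -0.14 and 0.05, had opposite signs in the lines. The value in HCT116-p53KO was near 0, at 0.01 after repeated quantile normalization and 0.0003 after loess correction.

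IDI1, isopentenyl diphosphate isomerase, differed by nearly the same amount in both siRNA pairs. It had 9.16 with NRF3 siRNA and 9.91 with control siRNA in HCT116, and 9.29 and 9.99 in HCT116-p53KO, which is 1.68-fold and 1.62-fold lower. In H1299 it had 9.68 with NRF3 and 9.05 with GFP, or 1.55-fold higher. IDI2, its neighbouring paralog, was under 6 on all arrays (4.11 to 5.62). IDI2-AS1, a noncoding gene that overlaps IDI1 in the RefSeq annotation, differed by -0.54 and -0.40 after siRNA and by -0.39 in H1299, where both arrays were under 6. In the limma fit over both HCT116 lines IDI2-AS1 fell by 0.47 (adjusted p = 0.0408). WDR37, a WD-repeat protein gene that also overlaps IDI1, differed by -0.31, -0.22 and 0.16, the signs of IDI1 (adjusted p = 0.379 in that limma fit). Of the genes that overlap other members, TCP1, a chaperonin subunit, and SOD2, the mitochondrial superoxide dismutase, lie at ACAT2 and differed by -0.31 and 0.32 in HCT116, by -0.02 and 0.29 in HCT116-p53KO and by 0.26 and 0.50 in H1299. ARID4B, a chromatin protein, lies at GGPS1 and differed by -0.57, -0.03 and 0.16. RUSC1-AS1, a noncoding gene at FDPS, differed by 0.12, 0.28 and -0.12. Whether overlapping transcripts added to the signal of a member was not tested.

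**Figure D2:**
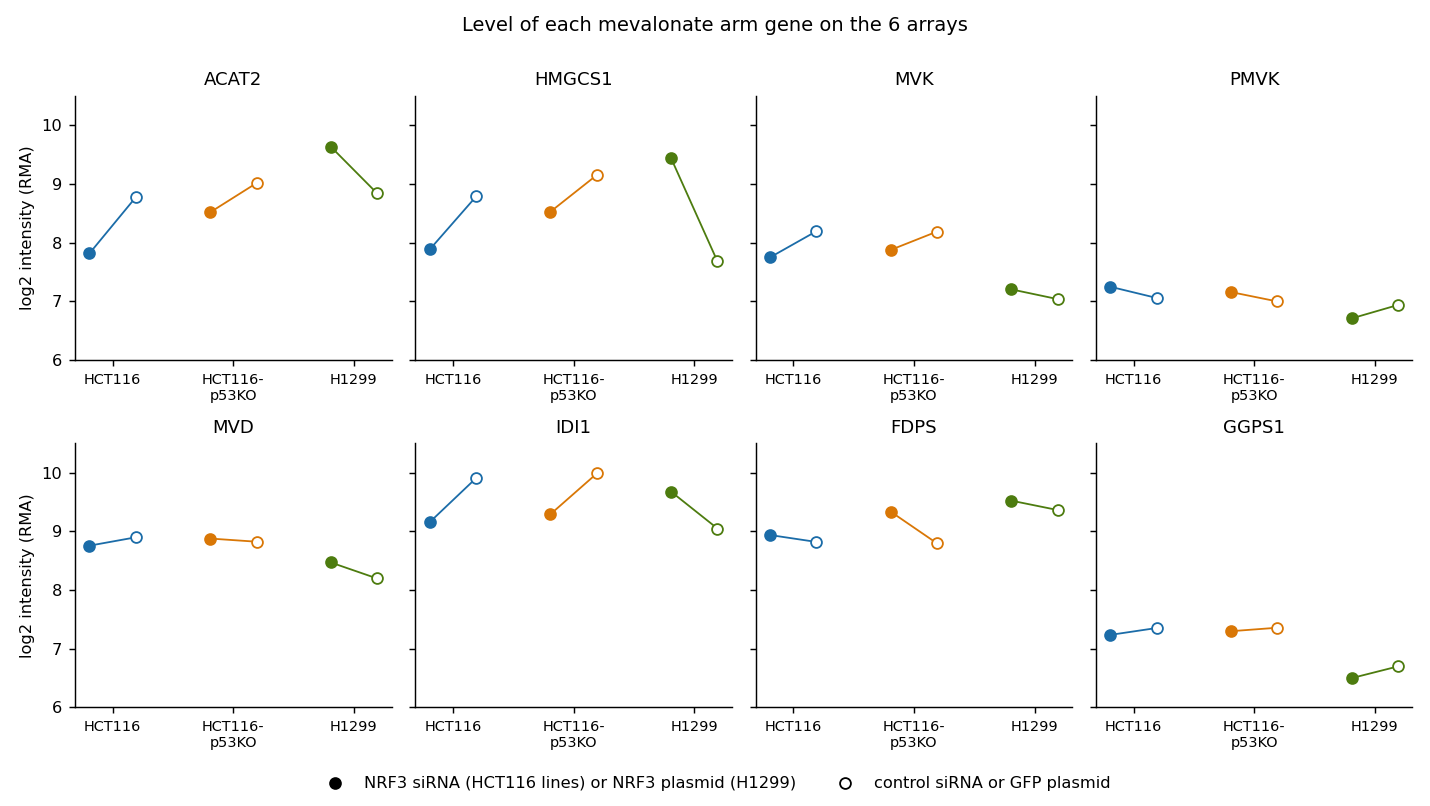
RMA log2 intensity (vertical axis) of each measured gene, 1 panel per gene, with a pair of arrays per cell line: filled points for NRF3 siRNA or NRF3 plasmid, open points for control siRNA or GFP plasmid. Levels are read within a panel and a line; HMGCS1 in H1299 has the steepest pair, 9.44 with NRF3 against 7.68 with GFP.

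Neither prenyl diphosphate synthase had the signs of ACAT2 and HMGCS1 in all 3 comparisons. FDPS, farnesyl diphosphate synthase, had 8.94 with NRF3 siRNA and 8.82 with control siRNA in HCT116, 9.34 and 8.79 in HCT116-p53KO, and 9.52 with NRF3 and 9.36 with GFP in H1299. It was the higher of the pair in all 3 comparisons, by 0.12, 0.54 and 0.16. The HCT116-p53KO difference, 1.46-fold, was at rank 622 from the highest of 13680 genes. A further 2 probe sets list FDPS together with its pseudogene FDPSP2 and were left out of the gene's value. They differed by 0.02 and 0.13 in HCT116, by 0.27 and 0.20 in HCT116-p53KO and by 0.19 and 0.23 in H1299, the same sign throughout. GGPS1, geranylgeranyl diphosphate synthase, had 7.24 with NRF3 siRNA and 7.35 with control siRNA in HCT116, 7.30 and 7.36 in HCT116-p53KO, and 6.50 with NRF3 and 6.70 with GFP in H1299. Its differences of -0.12, -0.06 and -0.20 all lay below 0, and the largest was 1.15-fold.

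**Figure D3:**
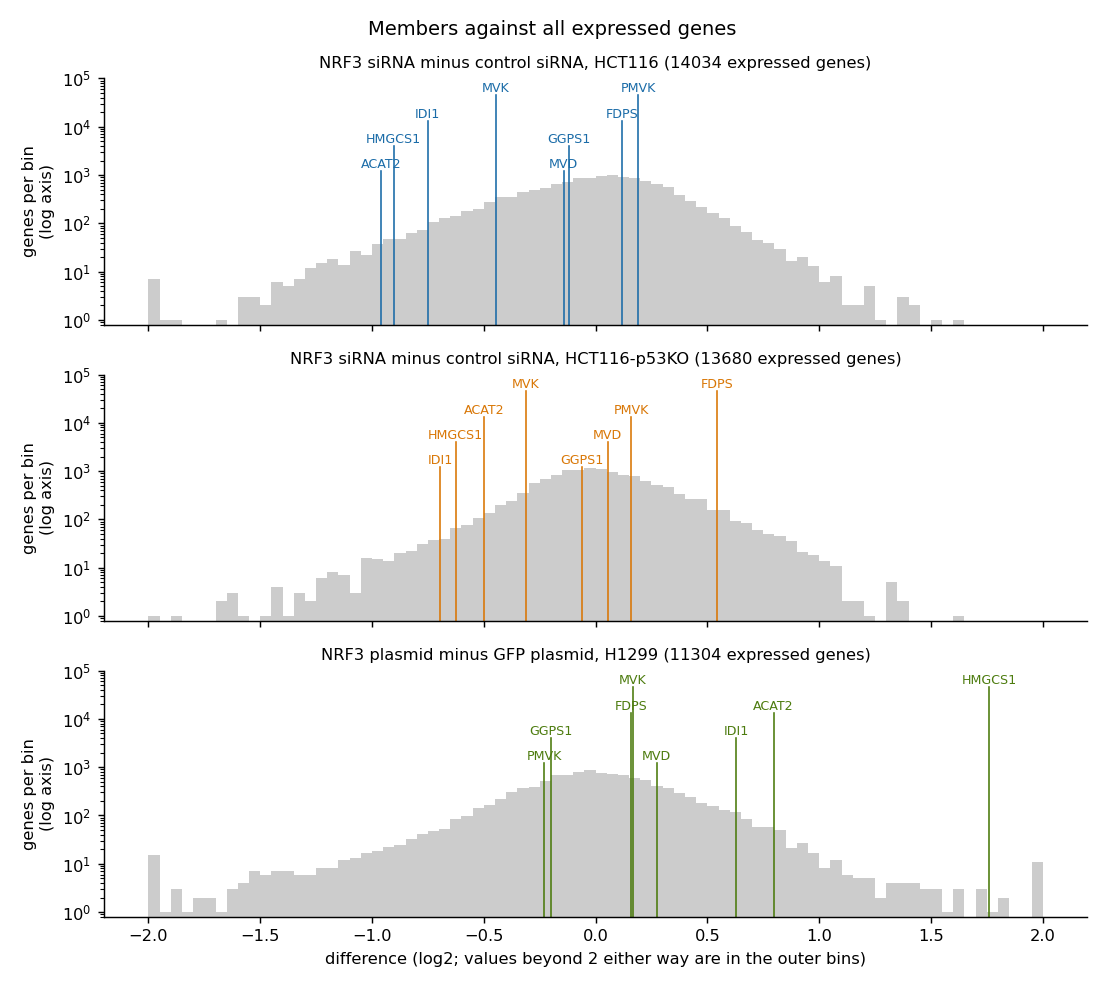
Histograms of the log2 difference (horizontal axis) over all expressed genes, with gene counts per bin on a log axis and a labelled line for each measured member. ACAT2, HMGCS1 and IDI1 lie in the lower tail in both HCT116 lines and in the upper tail in H1299, and the other members lie nearer the middle except FDPS in HCT116-p53KO, at 0.54.

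The siRNA effect was next tested over both HCT116 lines, with limma and cell line as a block over the 4 arrays. The 2 lines were the only replicates, and limma gave every gene the same SE, set by the spread between lines over all genes and not by the gene's own. All p-values are two-sided and adjusted over the 14148 genes tested. HMGCS1 fell by 0.76, ACAT2 by 0.73 and IDI1 by 0.72, each ± 0.16 (SE), with adjusted p = 0.000125, 0.000303 and 0.000334. Thus 3 of the 8 genes fell and 0 rose, where 5.43% of all genes fell and 4.45% rose. MVK was at -0.38 (adjusted p = 0.131) and FDPS at 0.33 (adjusted p = 0.219), neither past the threshold of 0.05. PMVK (0.18), GGPS1 (-0.09) and MVD (-0.04) had adjusted p from 0.649 to 0.947. The fit had 1 residual degree of freedom, but limma set infinite prior degrees of freedom, so the p-values rest on the common SE. With a common SE a call depends only on the size of the mean difference over the 2 lines. It therefore adds no check beyond those differences. HCT116-p53KO derives from HCT116, so the 2 lines are not independent. With the prior of the 6-array fit in place of the common SE these calls ended: the adjusted p was 0.147 for HMGCS1 and IDI1 and 0.17 for ACAT2, and limma called 0 of 14148 genes, with 1822 at an unadjusted p of 0.05.

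A fit of all 6 arrays asked whether the genes followed NRF3 over the 3 lines, taking the array with more NRF3 minus that with less in each. HMGCS1 was at 1.10 ± 0.21, ACAT2 at 0.75 ± 0.14 and IDI1 at 0.69 ± 0.12 (limma estimate ± SE). The sign was positive in 3 of 3 lines for each and for MVK, and negative in 3 of 3 for PMVK. HCT116-p53KO derives from HCT116, so these are not 3 independent lines. The share of all genes with the same sign throughout was not counted. The limma p adjusted over all genes was 0.24 for HMGCS1, ACAT2 and IDI1, and 0 of the 8 genes were called. Over all genes 0.0069% rose, which is NFE2L3 itself, and 0.0% fell. At an unadjusted p of 0.05 there were 1615 genes of 14492, and 4 of the 8 members: HMGCS1, ACAT2, IDI1 and MVK (0.31 ± 0.13).

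**Figure D4:**
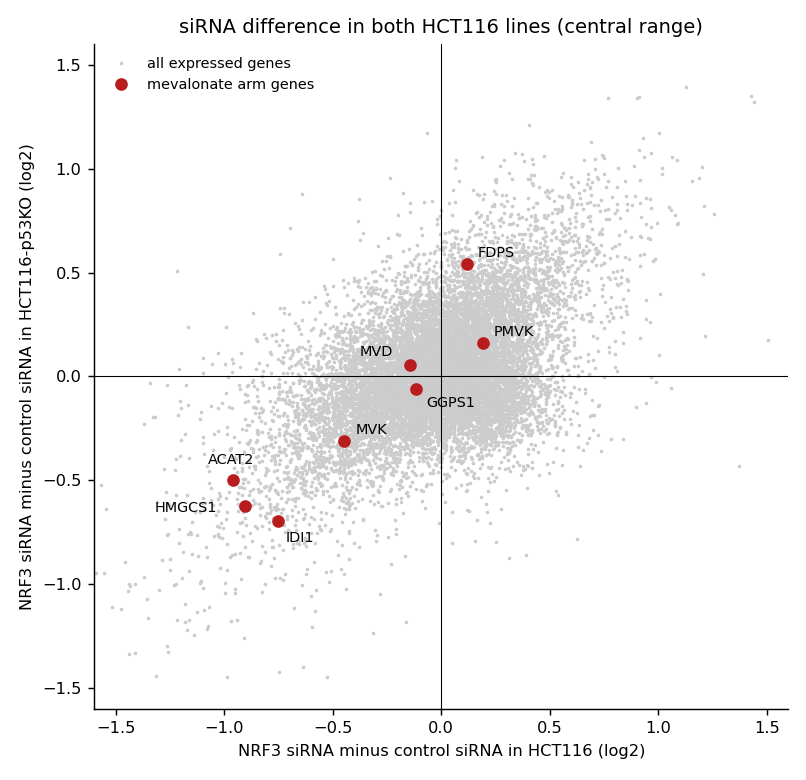
The NRF3 siRNA difference (log2) in HCT116 on the horizontal axis and in HCT116-p53KO on the vertical axis, for genes expressed in both (grey) and for the 8 members (red, labelled). Only the central range is drawn, so genes with larger differences, NFE2L3 among them, fall outside it. ACAT2, HMGCS1, IDI1 and MVK lie lower left, FDPS (0.12 and 0.54) and PMVK upper right, and MVD just across the zero line.

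The siRNA differences of some members were unequal in the HCT116 lines. That of NFE2L3 itself was also unequal, -2.35 in HCT116 and -1.55 in HCT116-p53KO, and its part here was not tested. Subtracting the siRNA difference of HCT116-p53KO from that of HCT116 gave -0.46 for ACAT2, -0.42 for FDPS, -0.28 for HMGCS1, -0.20 for MVD and -0.13 for MVK, and lay between -0.06 and 0.03 for GGPS1, IDI1 and PMVK. Over 13566 genes the median of this measure was -0.05 with a scaled median absolute deviation of 0.29, and with 1 array per group it could not be tested. This measure also contains the difference between the control arrays. HMGCS1 was 0.36 and ACAT2 0.24 higher in HCT116-p53KO than in HCT116 with control siRNA, and the other 6 members lay between -0.08 and 0.08. None of the 8 differed by 1.5-fold there, where 3.45% of 13827 genes were lower and 0.868% were higher.

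The rest of the pathway was read from lists of neighbouring genes. Of 10 sterol ring enzymes after squalene, 9 were lower in HCT116 (median -0.49), 7 in HCT116-p53KO (median -0.21) and 9 higher in H1299 (median 0.35). Among all expressed genes 48.4% were lower in HCT116, 49.5% were lower in HCT116-p53KO and 49.4% were higher in H1299. In the 4-array fit 4 of the 10 fell (LSS, MSMO1, NSDHL and SC5D) and 0 rose, where 5.43% of all genes fell and 4.45% rose, and in the 6-array fit limma called 0 genes of any neighbouring list. MSMO1, the sterol C4-methyl oxidase, differed by -1.31, -1.44 and 0.85, SC5D, the C5-desaturase, by -0.87, -0.62 and 1.16, and NSDHL, a sterol dehydrogenase, by -0.89, -0.64 and 0.03. Of 9 genes of SREBP2 control and sterol uptake, 1 fell (STARD4, a sterol carrier, by 0.47) and 1 rose (MBTPS1, the site-1 protease that cleaves SREBPs, by 0.46), counts near those all-gene shares. INSIG1, which retains the SREBP complex in the endoplasmic reticulum, was at -0.41, -0.40 and 0.81, and NPC1, the lysosomal cholesterol exporter, at -0.14, -0.22 and 0.83.

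Genes that use the isoprenoid products had medians near 0. Of 12 measured, 1 fell in the 4-array fit and 0 rose, which is near the all-gene shares of 5.43% and 4.45%, with medians of -0.02, 0.12 and 0.02 in HCT116, HCT116-p53KO and H1299. The one that fell was NUS1, a subunit of the dehydrodolichyl diphosphate synthase, at -1.13, -0.77 and 0.12. PDSS2, which helps make the ubiquinone side chain, was at 0.20, 0.60 and 0.52, with 1 array just under 6, and RCE1, the CAAX protease, at -0.63, -0.24 and 0.15. Of 4 genes of acetyl-CoA supply, ACAT1 rose by 1.11 ± 0.16 (limma, adjusted p = 2.6e-09) and 0 fell, while SLC25A1, the citrate carrier, and ACLY, ATP citrate lyase, lay between -0.15 and 0.28 throughout. All calls in these lists were made with the common SE. They ended with the prior of the 6-array fit, as did those of the members.

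**Figure D5:**
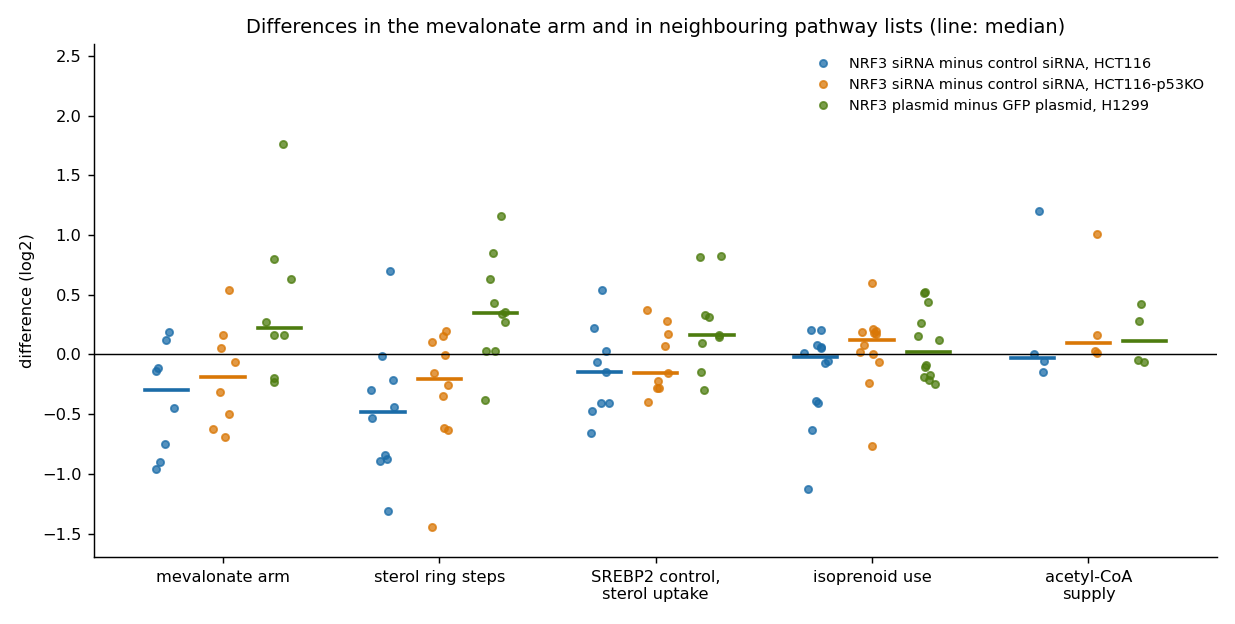
Log2 difference (vertical axis) of each measured gene of the mevalonate arm and of 4 neighbouring lists, 1 point per gene and a bar at the median, for the 3 NRF3 comparisons. The medians of the mevalonate arm and the sterol ring steps are below 0 after siRNA and above 0 in H1299, and the ACAT1 points (1.20 and 1.01) stand above the rest of the acetyl-CoA supply list.

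The genes nearest to the leading members over the 3 comparisons were listed. Likeness was the Euclidean distance between the 3 differences, over 10856 genes expressed in all comparisons. The 3 nearest genes are given whatever their distance. Among so many genes some lie close in 3 unreplicated differences, so the names show no link to the pathway, and none was tested. Nearest to HMGCS1 were TGM2, a transglutaminase (distance 0.37), ARHGEF28 (0.51), and SC5D (0.60), with ACAT2 at 0.97. Nearest to ACAT2 were RAD1, a checkpoint clamp subunit (0.04), PELI1, a ubiquitin ligase (0.11), and FUNDC2, a mitochondrial membrane protein (0.20), with IDI1 at 0.33. Nearest to IDI1 were KMT5A, a histone H4 methyltransferase (0.08), ISCU, an iron-sulfur cluster scaffold (0.08), and CHKA, choline kinase alpha (0.12).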

How the data were processed

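The labels' protocols give 100 ng of total RNA per whole-transcript Affymetrix array. The authors deposited a log2 intensity for each of 33297 probe sets, and the submitters' processing notes name RMA and Affymetrix Expression Console. The sources used here do not say which arrays shared a normalization. Of the probe sets 19460 had 1 gene symbol in the array's annotation, 1754 had several and 12083 were unlisted.

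Differences were taken between the 2 arrays of a comparison, for genes reaching a log2 intensity of 6 on either or both, and counted at 1.5-fold. limma 3.58.1 in R 4.3.3 (lmFit, eBayes, line as a block) was fitted to genes reaching 6 on any of its arrays, with Benjamini-Hochberg adjustment at 0.05. The fitting code was also run on simulated data with independent noise on each array, which does not test the calls made here. Promoter windows came from RefSeq (GRCh38.p14). The text names all members, NFE2L3, the paralogs, up to 3 genes per pathway list by mean absolute difference, and the 3 genes nearest to each of 3 members. MMAB, IDI2-AS1, WDR37, TCP1, SOD2, ARID4B, RUSC1-AS1, LSS, TM7SF2, MBTPS1 and the markers given were named after their values were seen. Members and lists were chosen with earlier results of these data known. Some planned list members, FDFT1 and proteins are not analysed here.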

Additional observations from a re-analysis of the deposited data

Results flagged for a closer look

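MVD was singled out because its NRF3 siRNA difference had opposite signs in the HCT116 lines: -0.1427 in HCT116 and 0.0543 in HCT116-p53KO. Both were small. After repeated quantile normalization they were -0.0711 and 0.0113, and after loess correction -0.0905 and 0.0003. The difference between the lines was not tested.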

How the results depend on the processing

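At 2-fold in place of 1.5-fold, 0 members were lower in HCT116, 0 were lower in HCT116-p53KO and 1, HMGCS1, was higher in H1299. Repeated quantile normalization and loess correction each left 3 and 2 members lower after siRNA and 2 higher in H1299. The median in H1299 was 0.45 with the expression minimum raised to 7, which left out PMVK and GGPS1, and otherwise medians kept their signs, from -0.30 to -0.26 in HCT116, from -0.20 to -0.18 in HCT116-p53KO and from 0.20 to 0.22 in H1299. In the 4-array limma fit, 0 members were called with the prior of the 6-array fit and 3 with a trended robust prior, repeated normalization, loess correction, no expression filter or an adjusted p of 0.10. The limma adjusted p of these 3 was larger after repeated normalization (0.0182 to 0.0250) and loess correction (0.0272 to 0.0367) than in the main fit (0.000125 to 0.000334). Over all genes that fit called 1398, against 0 with the 6-array prior, 1845 with the trended prior, 854 after repeated normalization and 632 after loess correction. Leaving out each line from the 6-array fit gave 0 to 3 members called, 3 without H1299, which is the 4-array fit, at adjusted p of 0.000125 to 0.000334, and 0 without either HCT116 line. No member passed 0.10 in the 6-array fit, and its 1 call over all genes, NFE2L3, was lost after repeated normalization or loess correction. Reading the given strand only, a CCAAT box was found in 4 of the 7 members and the Sp1 motif in 6, where 19.6% and 30.6% of all windows (not genes) held them on that strand.

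With 1 array per group no within-line value has an error, and RMA intensities do not give a signal over background for each probe set.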
